A study of Homo sapiens with 16 samples.

Results

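Human embryonic stem cells in which SALL4 was targeted by siRNA were compared with the same cells in which VRTN was targeted. Both groups were harvested 48 h after transfection. Members were chosen by their labels: the 3 SALL4 siRNA libraries and the 3 VRTN siRNA libraries, 6 of the 16 samples of the series. The series studied genes that human embryonic stem cells depend on. All cells were H9, an established human embryonic stem cell line, with an EGFP reporter driven by the Rex1 promoter, kept feeder-free on Matrigel in mTeSR1 medium. Transfection used 30 to 50 nM of pooled siRNA. The SALL4 pool was an esiRNA, a mixture made by enzymatic digestion of long double-stranded RNA, from Sigma, whereas the VRTN pool was bought from GE Healthcare Dharmacon. The kind and maker of the siRNA and the gene it targets changed together, so their parts in any difference below cannot be told apart. Per the labels, the replicates were independent biological samples of 1 cell line. A Luciferase esiRNA (n = 2) and a Control siRNA (n = 2) gave 4 control libraries. The labels give no harvest time for them, so they entered no test and appear below only as a range of levels.

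SALL4 is a zinc finger transcription factor of the spalt family that binds AT-rich DNA, recruits the NuRD chromatin remodelling complex through its amino terminus, and is needed in the early embryo and in pluripotent cells. VRTN encodes vertnin, a DNA-binding protein best known from pigs, where variants of the gene are associated with the number of thoracic vertebrae. Human pluripotent cells hold a network of transcription factors around POU5F1, SOX2 and NANOG, depend on FGF and activin or NODAL signalling for self-renewal, and have an active p53 response.

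The 6 samples held 21072538 to 28608244 counts each. Between 15539 and 16634 genes reached 10 counts in a library. Levels are given as CPM (counts scaled to a common library total), scaled by TMM, a method that equalises libraries on the bulk of their genes. A count of 3 in a library, the upper limit that a count of 0 allows, corresponded to 0.105 to 0.142 CPM. Transcripts of the mitochondrial genome took 26.4 to 34.8% of the counts in the SALL4 siRNA libraries and 29.2 to 36.9% in the VRTN siRNA libraries. Defining stem cell transcripts were present in all 6, with LIN28A at 999 to 1176 CPM and POU5F1 at 204 to 262 CPM. ZFP42, the gene also called REX1, is listed at 0 in all 16 libraries, so a listed 0 does not show that a transcript is absent.

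The replicates of the SALL4 group were not equally alike. Over 5826 well-expressed genes, SALL4 siRNA replicates 1 and 2 differed by a root mean square of 0.286 on the log2 scale, whereas replicate 3 differed from them by 0.521 and 0.460. The nearest library to SALL4 siRNA replicate 3 was VRTN siRNA replicate 3, at 0.413. VRTN siRNA replicates 1 and 2 differed by 0.266, and replicate 3 lay 0.396 and 0.415 from them. The labels name no batch. The plot of principal components shows the same arrangement. For each list whose count of calls moved by over 1.5 times when the third SALL4 replicate was left out, the count without it is given beside the result. Those counts stand beside 3.17% of all genes called without that library, against 1.21% with all 6 libraries.

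**Figure D1:**
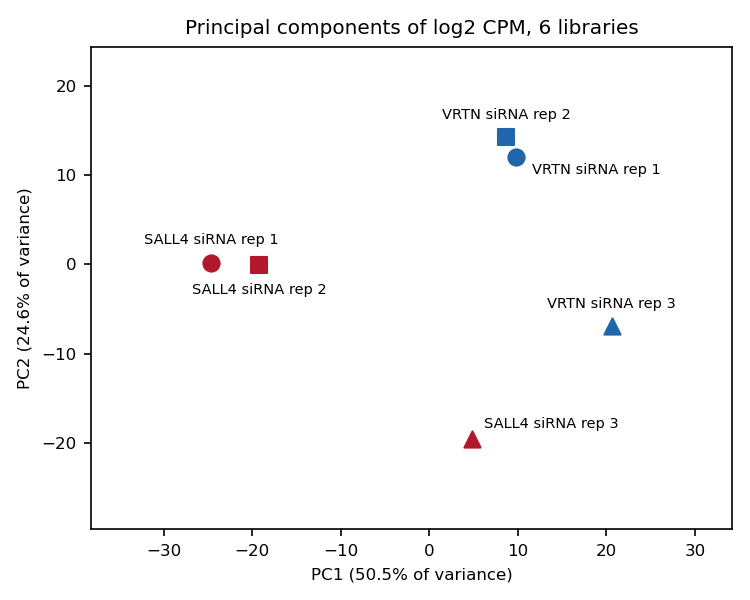
Principal components of log2 CPM over the 6 libraries, with the first component (50.5% of the variance) on the horizontal axis and the second (24.6%) on the vertical axis. Red points are SALL4 siRNA and blue points VRTN siRNA libraries, with 1 point per library. Replicates 1 and 2 of each group sit close together, and replicate 3 of each group sits apart from them, lower on the second component.

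The targeted transcripts came first. VRTN (chromosome 14, 74303069 to 74360008, GRCh38) stood at 19.3, 20.8 and 23.7 CPM in the VRTN siRNA libraries and at 155, 143 and 136 CPM in the SALL4 siRNA libraries, against 134 to 154 CPM in the 4 controls. The SALL4 siRNA libraries overlapped the control range and the VRTN siRNA libraries were all far below it. The difference was 2.78 ± 0.15 (SE) on the log2 scale (adjusted p = 2.83e-06, from the quasi-likelihood test of edgeR, adjusted by Benjamini and Hochberg's method, as is every adjusted p below unless another tool is named). SALL4 (chromosome 20, 51782331 to 51802520) stood at 193, 213 and 235 CPM in the SALL4 siRNA libraries, at 276, 248 and 281 CPM in the VRTN siRNA libraries and at 243 to 303 CPM in the controls. All 3 SALL4 siRNA libraries were below all VRTN siRNA and control libraries, but by little. SALL4 differed by -0.32 ± 0.12 on the log2 scale and did not pass the test (adjusted p = 0.299). At the RNA level the SALL4 label thus rests on a small difference. The protein was not measured.

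Of 15952 genes tested, 193 (1.21%) passed an adjusted p under 0.05, which is called a call from here on. Of these, 158 (0.99% of genes tested, 81.9% of calls) were higher with SALL4 siRNA and 35 (0.219% of genes tested) were higher with VRTN siRNA. At least 2-fold differences were found for 127 of the former and 22 of the latter. The median fold change over all genes tested was 0.0093 on the log2 scale. Without adjustment, 2015 genes (12.6%) had a p under 0.05. The 2 groups of libraries did not overlap for 2984 genes (18.7%), 1571 of them (9.85%) higher with SALL4 siRNA and 1413 (8.86%) higher with VRTN siRNA. The groups were apart for 192 of the 193 called genes, and CDKN1A was the exception. The number of calls depended on single libraries: it was 534 of 16849 genes (3.17%) without SALL4 siRNA replicate 3, and 40 to 100 when any other library was left out. SALL4 siRNA replicate 3 was, of its group, the library nearest the VRTN siRNA levels for 128 of the 193 called genes (66.3%), and for 45.3% of all genes tested.

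**Figure D2:**
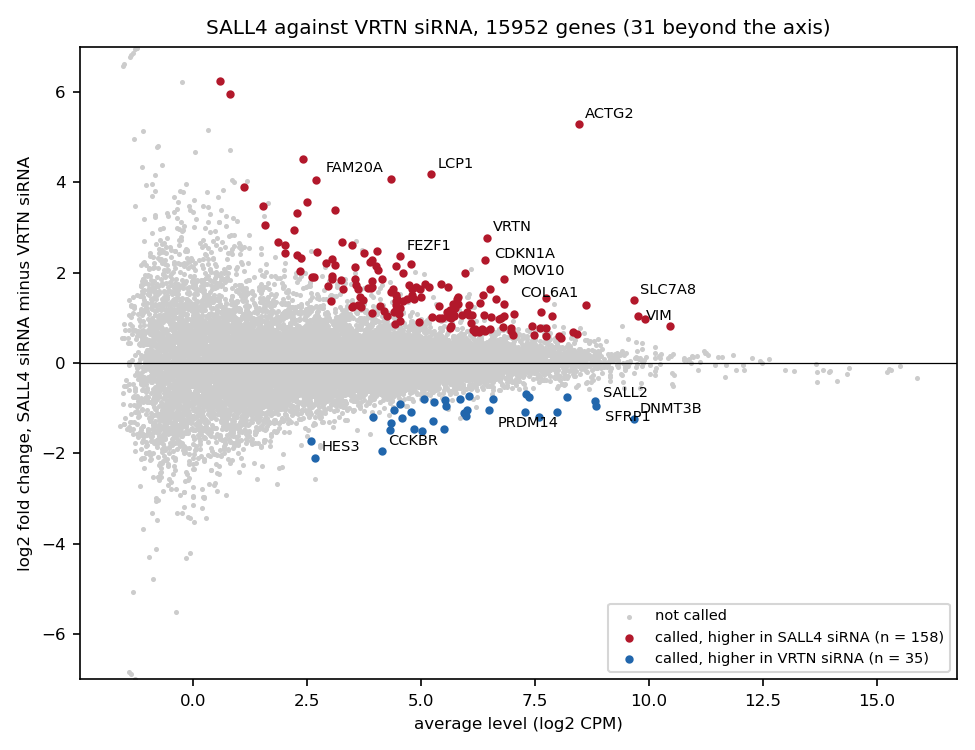
Each point is 1 of the 15952 genes tested, with its average level (log2 CPM) on the horizontal axis and the log2 fold change, SALL4 siRNA minus VRTN siRNA, on the vertical axis. Red and blue points are the 158 and 35 genes with an adjusted p under 0.05, and 31 genes lie beyond the vertical axis. Called genes are more numerous above the line than below it, with ACTG2 highest among the well-expressed ones and DNMT3B and HES3 among those below.

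The levels of the called genes were also set beside the 4 control libraries. Of the 158 genes higher with SALL4 siRNA, 60 had all SALL4 siRNA libraries above the control range with VRTN siRNA libraries overlapping it, 40 had all VRTN siRNA libraries below it with SALL4 siRNA libraries overlapping it, and 44 had the SALL4 siRNA libraries above and the VRTN siRNA libraries below. Both groups were above in 6 and both overlapped in 8. Of the 35 genes higher with VRTN siRNA, 15 had SALL4 siRNA libraries below the controls with VRTN siRNA libraries overlapping, 9 had VRTN siRNA libraries above with SALL4 siRNA libraries overlapping, and 7 had both displacements. Both groups lay above the controls in 2, below in 1 and overlapped in 1. These genes were chosen for a difference between the groups, which makes positions outside the control range more common. The same positions over all genes tested are not given, so the counts describe the called genes only.

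ACTG2, the gamma smooth muscle actin (chromosome 2, 73892314 to 73919865, forward strand), showed the largest difference among called genes of at least 2 log2 CPM. Its level was 658, 578 and 717 CPM in the SALL4 siRNA libraries and 20.7, 18.9 and 10.6 CPM in the VRTN siRNA libraries, against 44.6 to 72.7 CPM in the controls. The groups lay on opposite sides of the control range. The difference was 5.30 ± 0.24 on the log2 scale, 39.4-fold (adjusted p = 9.56e-07), and ranged from 5.05 to 5.48 when single libraries were left out. Actin genes share much of their sequence and the treatment of shared reads is not stated, so part of the counts may belong to relatives. The other smooth and striated muscle actins were not called: ACTA2 stood at 2.81 to 16.2 CPM with SALL4 siRNA and 7.40 to 39.9 CPM with VRTN siRNA, ACTA1 at 25.9 to 41.0 and 47.0 to 71.8 CPM, and ACTC1 at 606 to 682 and 665 to 832 CPM.

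Part of the sequence before the RefSeq start of ACTG2 is shown with the sequence for HES3, which had the largest difference in the other direction among called genes of at least 2 log2 CPM. Sequences are from RefSeq (GRCh38.p14), 5′ to 3′ on the gene's strand. Capitals mark CArG boxes, the element that serum response factor binds in actin genes, and, in ACTG2, the AT-rich word AATATT, a form of the AT-rich words that SALL4 binds. The stretches are chr2:73892758-73892944 (ACTG2, forward strand, inside the span of longer ACTG2 transcripts) and chr1:6243929-6244178 (HES3, forward strand).
ACTG2: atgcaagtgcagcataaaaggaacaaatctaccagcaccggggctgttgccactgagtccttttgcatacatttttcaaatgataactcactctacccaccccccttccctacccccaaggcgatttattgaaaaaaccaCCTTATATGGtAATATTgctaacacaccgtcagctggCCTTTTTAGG
HES3: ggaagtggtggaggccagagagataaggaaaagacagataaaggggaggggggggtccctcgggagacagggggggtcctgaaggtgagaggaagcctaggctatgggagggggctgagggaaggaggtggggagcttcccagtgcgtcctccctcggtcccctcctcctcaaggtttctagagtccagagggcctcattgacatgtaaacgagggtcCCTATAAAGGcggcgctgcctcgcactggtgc
ACTG2 holds 2 CArG boxes and an AATATT in this stretch, and HES3 holds 1 CArG box that also contains TATAAA. The 250 bases before the start of DNMT3B, searched as well and not shown, held no CArG box, AATATT or TATAAA. The ACTG2 stretch shows 187 of the 250 bases and stops after the second CArG box. The bases not shown, nearest the start, hold a TATAAA match in ACTG2 as well. The motifs were chosen after the ACTG2 values had been seen. Of the 193 called genes 136 had a promoter in the table. Searched on both strands in the 250 bases before the start, a CArG box occurred in 1.14% of all 27305 promoters, in 1.01% of those of genes tested, in 4 of 110 (3.64%) promoters of genes called higher with SALL4 siRNA and in 1 of 26 of those called higher with VRTN siRNA. AATATT occurred in 6.69% of all promoters, 2.44% of those of genes tested, 6 of 110 (5.46%) and 1 of 26. TATAAA, which can overlap both, occurred in 11.1%, 5.33%, 12 of 110 (10.9%) and 3 of 26 (11.5%). The counts are small and describe letters in a window, not binding.

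LCP1, which encodes the actin-bundling protein L-plastin, followed with 51.6, 57.2 and 93.1 CPM against 3.47, 4.11 and 3.70 CPM, and 15.0 to 20.8 CPM in the controls. The difference was 4.18 ± 0.26 on the log2 scale (adjusted p = 1.01e-05). FAM20A, which encodes a pseudokinase of the secretory pathway, was at 36.3, 35.9 and 37.1 CPM against 2.77, 2.68 and 1.07 CPM (4.09 ± 0.33, adjusted p = 1.38e-04). FAM20A overlaps PRKAR1A on the other strand, and without a stated strand setting reads of the 2 genes cannot be told apart. DMTN, which encodes the actin-binding protein dematin, was at 9.01, 7.80 and 12.6 CPM against 0.530, 0.644 and 1.32 CPM (3.56 ± 0.45, adjusted p = 0.00261). For LCP1 and DMTN the SALL4 siRNA libraries were all above, and the VRTN siRNA libraries all below, the controls. These calls held when any single library was left out.

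Other large differences in the same direction rested on smaller counts or on fewer libraries. GDNF, a neurotrophic growth factor, stood at 17.1, 12.6 and 4.35 CPM against 0.493 to 0.991 CPM (4.04 ± 0.54, adjusted p = 0.00399, 0.0567 without VRTN siRNA replicate 1). TRPC4, a calcium-permeable channel, stood at 18.9, 20.03 and 5.62 CPM against 1.14 to 1.96 CPM (3.40 ± 0.49, adjusted p = 0.00647, 0.067 without VRTN siRNA replicate 2). In both, the third SALL4 siRNA library was well below its fellows. The long noncoding RNA LINC02334 (4.52 ± 0.91), RAB17, a GTPase of epithelial traffic (3.32 ± 0.67), the tight junction gene CLDN1 (2.68 ± 0.45), FOXJ1, the regulator of motile cilia (2.62 ± 0.47), and NLGN1, a synaptic adhesion gene (2.94 ± 0.53), were called as well. RAB17, CLDN1, FOXJ1 and LINC02334 lost the call when any library other than SALL4 siRNA replicate 3 was left out (highest adjusted p 0.195, 0.101, 0.123 and 0.204). NLGN1 lost it without SALL4 siRNA replicate 1 or 2 or VRTN siRNA replicate 1 or 3 (highest adjusted p 0.169). Other fits ended 3 of these calls: LINC02334 had an adjusted p of 0.0572 with DESeq2, 0.128 with limma-voom and 0.0511 with all 16 libraries in 1 design, RAB17 of 0.0634 with limma-voom and NLGN1 of 0.117 with all 16 libraries.

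Among called genes of at least 2 log2 CPM that were higher with VRTN siRNA, HES3, a basic helix-loop-helix repressor of the Notch effector family, had the largest difference. It stood at 2.18, 2.61 and 2.04 CPM with SALL4 siRNA and at 9.58, 9.91 and 10.1 CPM with VRTN siRNA, against 7.28 to 10.5 CPM in the controls (-2.10 ± 0.32, adjusted p = 0.00892, 0.0656 at most without VRTN siRNA replicate 1 or 2). The VRTN siRNA libraries were within the control range and the SALL4 siRNA libraries below it. CHGA, the neuroendocrine granule protein chromogranin A, stood at 9.35, 11.1 and 9.33 CPM against 26.9, 29.9 and 27.3 CPM (-1.48 ± 0.20, adjusted p = 0.00425). Here the controls, at 14.2 to 18.2 CPM, lay between the groups. CHGA kept its call in all 6 omissions of a library.

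CCKBR, a receptor for gastrin and cholecystokinin (-1.96 ± 0.33), POLR3G, a subunit of RNA polymerase III that is abundant in stem cells (-1.46 ± 0.23), and STK38L, a kinase of the Hippo family (-1.32 ± 0.22), likewise had all VRTN siRNA libraries above the controls, with 20.3 to 39.6, 56.0 to 72.4 and 24.8 to 32.0 CPM. SALL4 siRNA libraries were below the controls for CCKBR, at 4.43 to 8.61 against 10.3 to 13.3 CPM. They were also below for POLR3G, at 17.8 to 32.7 against 40.2 to 45.9 CPM, and overlapped the controls for STK38L. HMOX1, which encodes haem oxygenase (-1.497 ± 0.30), the long noncoding RNA LNCPRESS2 (-1.27 ± 0.20), the transmembrane protein gene PRRT3 (-1.20 ± 0.24) and the pseudogene FAM86C1P (-1.23 ± 0.21) had SALL4 siRNA libraries below the controls and VRTN siRNA libraries overlapping them. FAM86C1P belongs to a family of near copies and its counts are uncertain. CYP26A1, which degrades retinoic acid, was at 13.1 to 17.0 CPM against 28.7 to 59.9 CPM (-1.46 ± 0.27), with both groups overlapping the controls. All 8 lost the call in 3 to 5 of the 6 omissions, with highest adjusted p between 0.0764 (LNCPRESS2) and 0.202 (HMOX1 and PRRT3). The libraries whose omission ended the call were SALL4 siRNA replicate 2 and VRTN siRNA replicate 1 in each of the 8, and SALL4 siRNA replicate 1 in each but LNCPRESS2. VRTN siRNA replicate 2 ended it in all but CCKBR and CYP26A1, and VRTN siRNA replicate 3 in all but POLR3G and LNCPRESS2.

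**Figure D3:**
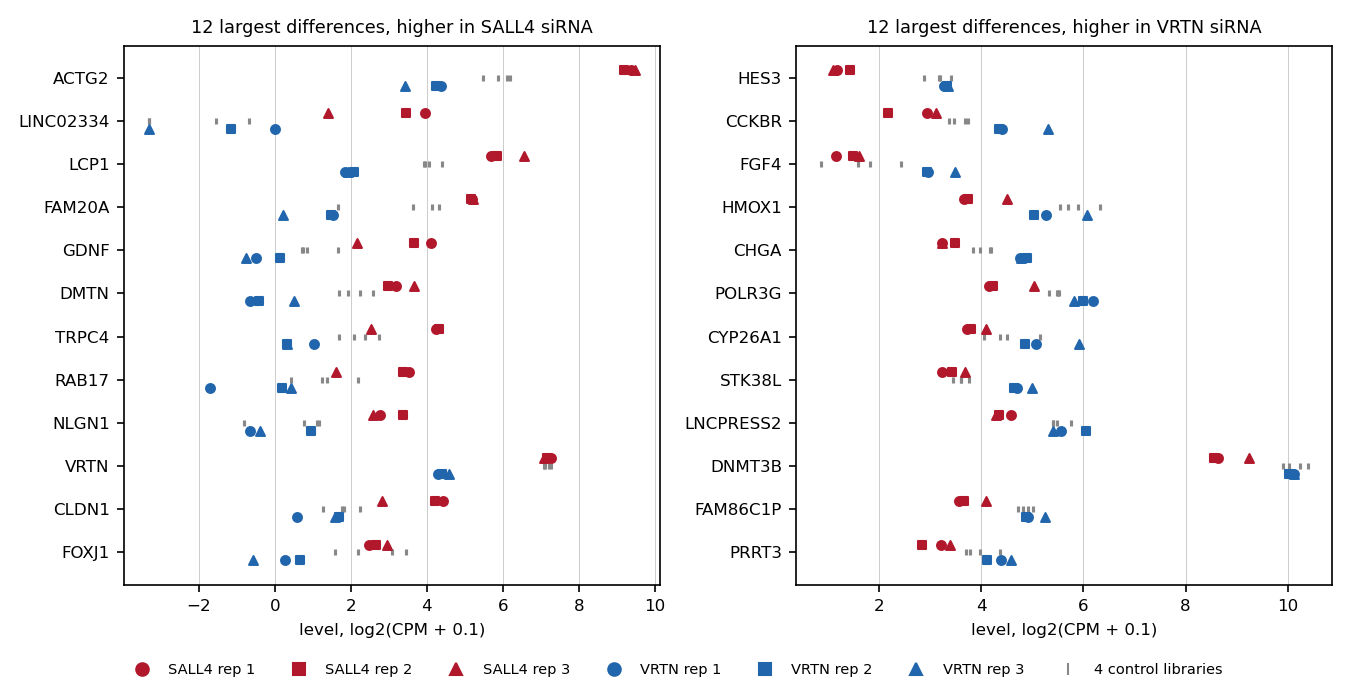
Levels as log2(CPM + 0.1) of the 12 genes with the largest differences in each direction, in single libraries. Red marks are SALL4 siRNA and blue marks VRTN siRNA libraries, with the shape giving the replicate, and grey ticks are the 4 controls. In ACTG2, LCP1 and DMTN the controls lie between the groups, in VRTN they coincide with SALL4 siRNA and in HES3 with VRTN siRNA.

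Pluripotency genes differed in both directions. In the list of core and primed pluripotency genes, 34 were tested: 3 were called higher with SALL4 siRNA and 3 higher with VRTN siRNA, with a median of -0.054 on the log2 scale beside 0.0093 over all genes. Calls made up 17.6% of the 34, beside 1.21% of all genes tested. Without adjustment 16 of the 34 (47.1%, beside 12.6% of all genes tested) had a p under 0.05, 12 of them higher with VRTN siRNA. Without SALL4 siRNA replicate 3, 3 were called higher with SALL4 siRNA and 7 higher with VRTN siRNA. The network's centre was not called. POU5F1 stood at 234, 243 and 234 CPM against 262, 204 and 238 CPM, and SOX2 at 190, 232 and 227 CPM against 202, 203 and 234 CPM. NANOG stood at 158, 143 and 76.1 CPM against 117, 116 and 107 CPM, with the third SALL4 siRNA library below the VRTN siRNA libraries and the other two above. The fold changes were 0.032 ± 0.12 for POU5F1, 0.041 ± 0.13 for SOX2 and 0.17 ± 0.22 for NANOG. Their sign turned when 1 library was left out, to -0.056 without VRTN siRNA replicate 2 for POU5F1, -0.018 without SALL4 siRNA replicate 2 for SOX2 and -0.045 without SALL4 siRNA replicate 1 for NANOG.

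DNMT3B, the de novo DNA methyltransferase that marks primed stem cells (chromosome 20, 32762385 to 32809356), stood at 397, 378 and 601 CPM with SALL4 siRNA and at 1121, 1044 and 1120 CPM with VRTN siRNA. The controls, at 964 to 1340 CPM, overlapped the VRTN siRNA libraries, and all SALL4 siRNA libraries were below both. The difference was -1.24 ± 0.16 (adjusted p = 0.00346) and was called in all 6 omissions. It was the only called gene among 25 tested polycomb and DNA methylation genes (4%, beside 1.21% of all genes tested). PRDM14, a repressor that maintains the pluripotent state, stood at 62.9, 54.9 and 50.2 CPM against 125, 119 and 104 CPM (-1.04 ± 0.14, adjusted p = 0.0052, 0.0621 without VRTN siRNA replicate 1). SALL4 siRNA libraries were below the controls here too, which were at 114 to 133 CPM. UTF1, a chromatin-associated factor of undifferentiated cells, went the other way at 73.6, 50.2 and 62.8 CPM against 26.5, 31.7 and 27.8 CPM (1.13 ± 0.18, adjusted p = 0.0104). For UTF1 the VRTN siRNA libraries were the ones outside the control range of 60.5 to 71.0 CPM. UTF1 lost its call without SALL4 siRNA replicate 1 or VRTN siRNA replicate 1 or 2 (highest adjusted p 0.0985).

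The 4 SALL paralogs were all tested. SALL2 was higher with VRTN siRNA, at 294, 259 and 359 CPM against 576, 575 and 507 CPM (-0.85 ± 0.14, adjusted p = 0.0115), and both groups were below the controls at 657 to 811 CPM. SALL3 was higher with SALL4 siRNA, at 58.2, 54.1 and 47.0 CPM against 25.6, 27.9 and 27.8 CPM (0.99 ± 0.16, adjusted p = 0.0115), with the controls between the groups at 32.3 to 43.2 CPM. Both lost the call without SALL4 siRNA replicate 1 or 2 or VRTN siRNA replicate 1 or 2 (highest adjusted p 0.0985 for SALL2 and 0.0998 for SALL3). Of 16 genes for subunits of NuRD, the complex SALL4 recruits, 1 was called (6.25%, beside 1.21% of all genes tested). This was CHD3, a remodelling helicase, at 35.2, 22.9 and 27.4 CPM against 10.9, 13.5 and 4.85 CPM (1.57 ± 0.33, adjusted p = 0.0454). CHD3 overlaps NAA38 on the other strand, and its call was lost when any library but SALL4 siRNA replicate 3 was left out (highest adjusted p 0.211). Without that library 2 of the 16 were called.

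Of 13 tested genes tied to the naive state, 3 were called (23.1%, beside 1.21% of all genes tested). KLF5, a Krüppel-like activator, stood at 8.61, 7.31 and 3.11 CPM against 1.02, 1.04 and 1.48 CPM (2.44 ± 0.49, adjusted p = 0.0371). TFAP2C, an AP-2 factor of naive cells and trophoblast, stood at 17.8, 21.9 and 26.1 CPM against 5.91, 4.36 and 10.4 CPM (1.69 ± 0.32, adjusted p = 0.0278). FGF4, the growth factor that drives ERK signalling in the epiblast, was lower, at 2.14, 2.73 and 2.94 CPM against 7.66, 7.53 and 11.1 CPM (-1.74 ± 0.35, adjusted p = 0.0351), and its VRTN siRNA libraries were above the controls at 1.72 to 5.32 CPM. KLF5 and FGF4 lost the call when any library but SALL4 siRNA replicate 3 was left out (highest adjusted p 0.233 and 0.158), and TFAP2C did so for 4 libraries, all but replicate 3 of either group (0.181). FGF4 was at 0.0517 without replicate 3 of both groups. The list held 5 calls without SALL4 siRNA replicate 3, 4 of them higher with SALL4 siRNA. The list's median was 0.51, and 8 of its 22 genes were under 1 CPM in all 6 libraries.

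p53 target genes leaned to one side. Of 39 tested, 4 (10.3%, beside 1.21% of all genes tested) were called, all higher with SALL4 siRNA, as were 81.9% of all calls. The median was 0.74 on the log2 scale. Unadjusted p-values were under 0.05 for 17 of the 39 (43.6%, beside 12.6% of all genes tested), all higher with SALL4 siRNA. The summed level of the list was 1730, 1676 and 898 CPM with SALL4 siRNA, 893, 906 and 661 CPM with VRTN siRNA and 833 to 1123 CPM in the controls. Levels in the controls differed by replicate number. Replicate 1 was at 1123 (Luciferase) and 979 CPM (Control), and replicate 2 at 838 and 833 CPM. Replicate 3 was the lowest of both siRNA groups. The third SALL4 siRNA library was at the level of the first 2 VRTN siRNA libraries, and it was the SALL4 siRNA library nearest the VRTN siRNA levels for 31 of the 39 genes. Without it 14 members were called, all higher with SALL4 siRNA, where calls over all genes also rose, from 1.21% to 3.17%. Leaving out any other library left 1, where calls over all genes fell from 193 to between 40 and 100.

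CDKN1A, the cyclin-dependent kinase inhibitor p21, stood at 192, 178 and 31.7 CPM with SALL4 siRNA and at 29.8, 33.3 and 20.97 CPM with VRTN siRNA, against 28.9 to 72.4 CPM in the controls. The controls stood at 72.4 (Luciferase) and 57.2 CPM (Control) in replicate 1 and at 39.8 and 28.9 CPM in replicate 2. The SALL4 and VRTN siRNA groups overlapped for CDKN1A: 2 SALL4 siRNA libraries were far above all others and SALL4 siRNA replicate 3 was not. The fold change was 2.27 ± 0.49 (adjusted p = 0.0486, 6.12e-05 without SALL4 siRNA replicate 3, and up to 0.251 without any other library). It was 0.0658 with DESeq2 and 0.0516 with DESeq2's size factors in edgeR. MDM2, the ubiquitin ligase that limits p53, stood at 77.0, 82.8 and 44.1 CPM against 37.5, 33.4 and 29.1 CPM (1.04 ± 0.22, adjusted p = 0.0481, and 0.0516 with DESeq2's size factors). AEN, an apoptosis-enhancing nuclease, stood at 85.6, 97.3 and 68.8 CPM against 49.5, 41.3 and 47.7 CPM (0.88 ± 0.16, adjusted p = 0.0246). MDM2 and AEN also lost the call without any library but SALL4 siRNA replicate 3 (highest adjusted p 0.257 and 0.175). TRIM22, an antiviral ring finger protein that p53 also induces, stood at 111, 98.7 and 76.5 CPM against 25.8, 29.7 and 17.2 CPM (1.99 ± 0.22, adjusted p = 0.00151) and was called in all 6 omissions. TRIM22 overlaps TRIM5 on the other strand.

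**Figure D4:**
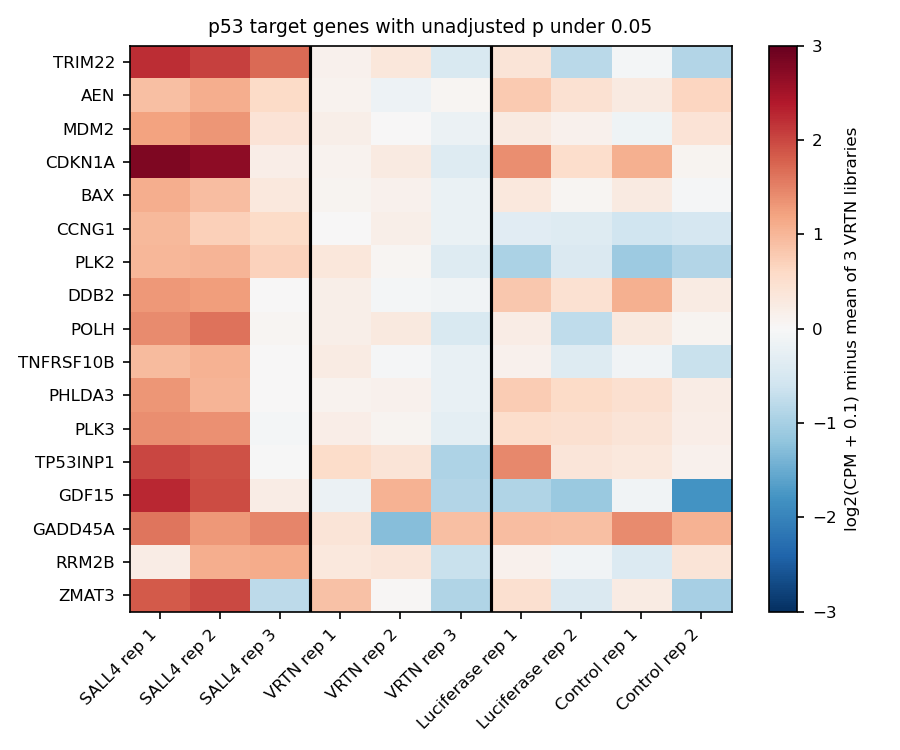
The 17 p53 target genes with an unadjusted p under 0.05, in rows, over the 3 SALL4 siRNA, 3 VRTN siRNA and 4 control libraries, in columns. Colour is log2(CPM + 0.1) minus the mean of the 3 VRTN siRNA libraries, with red higher and blue lower. Replicates 1 and 2 of SALL4 siRNA are red in nearly every row, and replicate 3 is pale in most.

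Amino acid transporters also held several calls in one direction. Of 26 tested, 4 (15.4%, beside 1.21% of all genes tested) were called, all higher with SALL4 siRNA, as were 81.9% of all calls. The median was 0.30. SLC7A8, a light chain of the system L exchanger, stood at 1437, 1188 and 740 CPM against 464, 500 and 334 CPM (1.39 ± 0.22, adjusted p = 0.011). Its sister SLC7A5 stood at 1379, 1269 and 976 CPM against 563, 547 and 756 CPM (0.97 ± 0.16, adjusted p = 0.0124). SLC3A2, the heavy chain that pairs with both, stood at 256, 279 and 241 CPM against 145, 137 and 174 CPM (0.78 ± 0.13, adjusted p = 0.0154). In these 3 genes the VRTN siRNA libraries were below the controls, which were at 598 to 697, 1161 to 1535 and 179 to 258 CPM, and for SLC7A8 the SALL4 siRNA libraries were above them as well. SLC7A3, a cationic amino acid transporter, stood at 155, 153 and 203 CPM against 73.2, 64.4 and 107 CPM (1.08 ± 0.19, adjusted p = 0.0216), with SALL4 siRNA libraries above the controls. The 4 calls were lost without VRTN siRNA replicate 1 or 2 or SALL4 siRNA replicate 2, and for SLC7A5, SLC3A2 and SLC7A3 also without SALL4 siRNA replicate 1 (highest adjusted p 0.0841 to 0.161). Leaving out SALL4 siRNA replicate 3 gave 7 members called higher with SALL4 siRNA and 1 higher with VRTN siRNA. Genes of the ATF4 stress response, which includes amino acid supply genes, had 0 calls among 33 tested. Unadjusted p-values were under 0.05 for 9 (27.3%, beside 12.6% of all genes tested), 6 of them higher with VRTN siRNA. DESeq2 called 2, limma-voom 4 and the fit without SALL4 siRNA replicate 3 called 3. PCK2, mitochondrial phosphoenolpyruvate carboxykinase, had the smallest p of this list, at 11.4, 12.6 and 15.7 CPM against 23.6, 23.6 and 22.2 CPM (-0.79 ± 0.21, adjusted p = 0.112, 0.0396 without SALL4 siRNA replicate 3).

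Genes of FGF and ERK signalling held 5 calls among 26 tested (19.2%, beside 1.21% of all genes tested). Of these, 3 were higher with SALL4 siRNA and 2 higher with VRTN siRNA. FGF4, the ligand, is given above. The receptor gene FGFR3 stood at 44.9, 37.5 and 24.4 CPM against 13.7, 16.7 and 10.2 CPM (1.42 ± 0.26, adjusted p = 0.024). Among targets that feed back on ERK, the phosphatase genes parted ways. DUSP4 stood at 15.5, 14.5 and 8.52 CPM against 3.26, 1.88 and 2.71 CPM (2.30 ± 0.35, adjusted p = 0.00892). DUSP6 stood at 42.9, 45.8 and 32.2 CPM against 93.3, 92.0 and 65.3 CPM (-1.03 ± 0.19, adjusted p = 0.0222). The VRTN siRNA libraries were below the controls for DUSP4 (4.39 to 9.79 CPM) and above them for DUSP6 (22.9 to 61.9 CPM), while SALL4 siRNA libraries overlapped the controls in both. IER3, an immediate early gene, stood at 367, 340 and 185 CPM against 116, 118 and 96.8 CPM (1.45 ± 0.22, adjusted p = 0.00892), and both groups were above the controls at 48.4 to 78.1 CPM. It was the only called gene of 26 immediate early genes tested, of which 2 were called by DESeq2, 4 by limma-voom and 7 (5 higher with SALL4 siRNA) without SALL4 siRNA replicate 3. The FGF and ERK list held 8 calls without that library, 5 of them higher with SALL4 siRNA. Leaving out SALL4 siRNA replicate 2 or VRTN siRNA replicate 2 ended each of these 4 calls. VRTN siRNA replicate 1 did so for all but DUSP4, SALL4 siRNA replicate 1 for all but IER3 and VRTN siRNA replicate 3 for FGFR3 (highest adjusted p 0.0676 to 0.161).

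In the WNT list 2 of 29 genes were called (6.9%, beside 1.21% of all genes tested). SFRP1, a secreted inhibitor of WNT ligands, stood at 272, 296 and 326 CPM with SALL4 siRNA and 544, 635 and 576 CPM with VRTN siRNA (-0.96 ± 0.12, adjusted p = 0.00252), a call that held in all 6 omissions. The VRTN siRNA libraries were all above the controls at 267 to 356 CPM. CCND1, cyclin D1, stood at 179, 175 and 108 CPM against 74.1, 72.7 and 40.7 CPM (1.32 ± 0.24, adjusted p = 0.0246), with VRTN siRNA libraries below the controls at 111 to 126 CPM. CCND1 was also the only call among 46 replication and G1/S genes (2 by DESeq2, 4 by limma-voom and 3 without SALL4 siRNA replicate 3), and it was lost without any library but SALL4 siRNA replicate 3 (highest adjusted p 0.148). Without SALL4 siRNA replicate 3 the WNT list held 6 calls, 5 of them higher with SALL4 siRNA.

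Of the YAP target list, CCN1, a matricellular protein, was the 1 called gene of 18 tested (5.6%). Over all genes tested, 1.21% were called and 12.6% had an unadjusted p under 0.05. Of the YAP targets DESeq2 called 4, limma-voom 3 and the fit without SALL4 siRNA replicate 3 called 5, all higher with SALL4 siRNA. CCN1 stood at 271, 255 and 251 CPM against 119, 117 and 123 CPM, with the controls between at 167 to 189 CPM (1.13 ± 0.11, adjusted p = 0.001, and 0.0201 at most with a library left out). HES3 was the only called gene among 23 Notch genes, of which 2 were called by DESeq2, 2 by limma-voom and 3 without SALL4 siRNA replicate 3. DLL3, a Notch ligand of the paraxial mesoderm and nervous system, stood at 6.26 to 15.98 CPM against 4.61 to 8.18 CPM and was not called (adjusted p = 0.37). The NODAL and TGF-beta list had 0 calls among 27 tested (8 at an unadjusted p under 0.05; 2 calls by DESeq2, 3 by limma-voom and 3 without SALL4 siRNA replicate 3). The BMP list had 0 among 17 (6 unadjusted; 2 by DESeq2, 1 by limma-voom and 1 without that library). BAMBI, a decoy receptor that dampens both pathways, came nearest, at 13.7, 8.59 and 10.8 CPM against 4.08, 5.45 and 2.55 CPM (1.47 ± 0.35, adjusted p = 0.0758). NODAL itself, named after its values were seen, stood at 15.6 to 21.1 CPM against 5.75 to 12.1 CPM and was not called (adjusted p = 0.112).

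**Figure D5:**
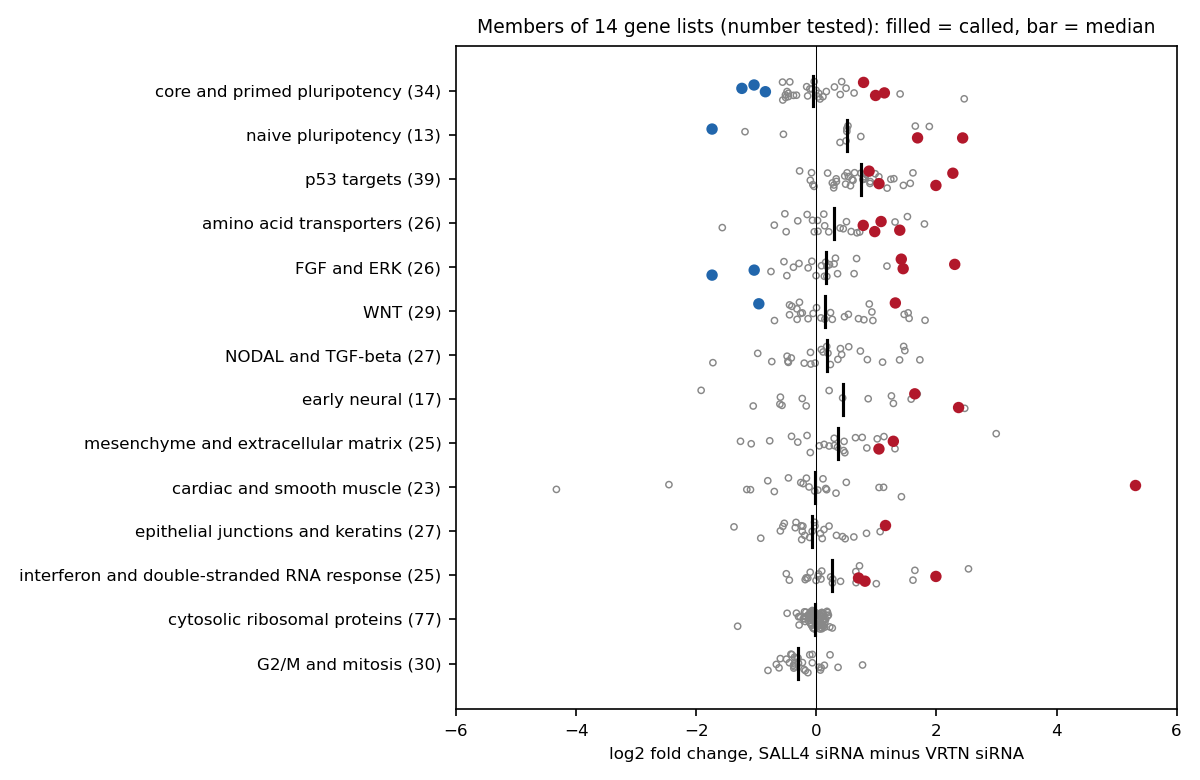
Fold changes of the tested members of 14 gene lists, on the log2 scale, SALL4 siRNA minus VRTN siRNA, with the number tested in brackets. Filled points are called genes, red higher with SALL4 siRNA and blue higher with VRTN siRNA, open points are not called, bars are medians, and 2 members lie beyond the axis. The p53 targets sit mostly right of 0 with a median of 0.74, the ribosomal protein genes lie close to 0, and the pluripotency and FGF lists hold called genes on both sides.

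Early neural genes held 2 calls among 17 tested (11.8%, beside 1.21% of all genes tested). Both were higher with SALL4 siRNA and called in all 6 omissions. In bulk RNA a larger share of cells with a transcript and more of it per cell cannot be told apart, here and in the marker lists that follow. FEZF1, a zinc finger repressor of the forebrain, stood at 41.6, 38.8 and 30.2 CPM against 5.71, 5.06 and 10.9 CPM (2.37 ± 0.29, adjusted p = 0.00243). FEZF1 overlaps FEZF1-AS1 on the other strand. SOX3, a SOXB1 factor of neural progenitors, stood at 40.6, 44.2 and 50.0 CPM against 18.8, 11.7 and 13.2 CPM (1.64 ± 0.21, adjusted p = 0.00295). In both genes the VRTN siRNA libraries overlapped the controls and the SALL4 siRNA libraries were above them. Without SALL4 siRNA replicate 3 the list held 3 calls higher with SALL4 siRNA and 1 higher with VRTN siRNA. CHGA was the only call among 19 neuroendocrine and neuronal genes (2 by DESeq2 and 2 by limma-voom).

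In the neural crest list 2 of 14 genes were called (14.3%, beside 1.21% of all genes tested). CRABP1, which binds retinoic acid in the cytoplasm, stood at 141, 149 and 146 CPM against 75.4, 73.7 and 64.4 CPM (1.05 ± 0.13, adjusted p = 0.00239), a call kept in all 6 omissions. ETS1, a transcription factor of crest and endothelium, stood at 33.5, 38.4 and 46.5 CPM against 16.6, 16.3 and 12.2 CPM (1.41 ± 0.20, adjusted p = 0.00705, 0.0531 without VRTN siRNA replicate 1). Of 8 tested genes of trophoblast and amnion, TFAP2C and GATA2 were called (25%, beside 1.21% of all genes tested). GATA2 stood at 8.67, 4.24 and 1.79 CPM against 0.530, 0.545 and 0.247 CPM (3.48 ± 0.69, adjusted p = 0.0356, up to 0.357 without any library but SALL4 siRNA replicate 3). It was 0.11 with limma-voom and 0.0798 with all 16 libraries in 1 design, and 14 of the 22 genes on that list were under 1 CPM in all 6 libraries.

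Genes of the germ layers were largely at low levels and not called, where 1.21% of all genes tested were called. Of all genes tested 12.6% had an unadjusted p under 0.05. The list of primitive streak and mesendoderm had 0 calls among 13 tested (4 at an unadjusted p under 0.05; 3 calls by DESeq2, 2 by limma-voom and 1 without SALL4 siRNA replicate 3), with a median of 1.03. FGF17 had its smallest p, at 1.84, 1.55 and 1.11 CPM with SALL4 siRNA and listed at 0 in all 3 VRTN siRNA libraries (adjusted p = 0.0722). Endoderm genes had 0 calls among 12 (4 unadjusted; 1 by DESeq2, 1 by limma-voom and 1 without SALL4 siRNA replicate 3). FOXA2, the pioneer factor of endoderm and floor plate, stood at 1.22, 0.303 and 3.71 CPM against 11.8, 10.2 and 9.002 CPM (-2.56 ± 0.63, adjusted p = 0.0895, 0.00442 without SALL4 siRNA replicate 3). All VRTN siRNA libraries were above the controls at 3.12 to 6.497 CPM. Somite and vertebral patterning genes, the processes with which VRTN is associated in pigs, had 0 calls among 12 tested (2 unadjusted; 0 by DESeq2, 0 by limma-voom and 1 without SALL4 siRNA replicate 3). Of the 29 genes on that list, 16 were under 1 CPM in all 6 libraries.

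The called members of the lists of mesenchyme, adhesion and muscle genes were higher with SALL4 siRNA, as were 81.9% of all calls. Of the muscle list DESeq2 called 4, 2 of them higher with VRTN siRNA, and limma-voom 4, 1 of them higher with VRTN siRNA. In the list of mesenchyme and extracellular matrix, 2 of 25 were called (8%, beside 1.21% of all genes tested) and the median was 0.35. VIM, the intermediate filament vimentin, stood at 1169, 1102 and 1038 CPM against 572, 590 and 461 CPM (1.04 ± 0.12, adjusted p = 0.00175) and was called in all 6 omissions, with SALL4 siRNA libraries above the controls at 316 to 757 CPM. These controls were split by replicate number, with 757 and 640 CPM in replicate 1 and 319 and 316 CPM in replicate 2. The VRTN siRNA libraries lay between. COL6A1, a chain of collagen VI, stood at 551, 440 and 610 CPM against 178, 181 and 306 CPM (1.28 ± 0.20, adjusted p = 0.0115), and both groups were above the controls at 121 to 167 CPM. ITGB5, an integrin chain, stood at 85.8, 86.5 and 95.8 CPM against 36.1, 36.9 and 56.3 CPM (1.07 ± 0.18, adjusted p = 0.0166) as the 1 call of 25 laminins and integrins. PKP2, a desmosomal plakophilin, stood at 25.3, 31.0 and 26.0 CPM against 14.1, 14.5 and 9.21 CPM (1.14 ± 0.23, adjusted p = 0.0356) as the 1 call of 27 listed epithelial genes. The tight junction gene CLDN1, called above, was not on that list. ACTG2 was the 1 call of 23 cardiac and smooth muscle genes, whose median was -0.026. COL6A1, ITGB5 and PKP2 lost the call without VRTN siRNA replicate 1 or 2 or SALL4 siRNA replicate 1. ITGB5 and PKP2 lost it without SALL4 siRNA replicate 2, and PKP2 without VRTN siRNA replicate 3 (highest adjusted p 0.0985, 0.131 and 0.221). Without SALL4 siRNA replicate 3 there were 3 calls in the list of laminins and integrins, all higher with SALL4 siRNA, and 4 in the epithelial list, 3 of them higher with SALL4 siRNA. Matrix genes outside the lists were also called higher with VRTN siRNA: VCAN, the proteoglycan versican, named after its values were seen, stood at 166, 184 and 110 CPM against 344, 387 and 263 CPM (-1.09 ± 0.20, adjusted p = 0.0216). The VCAN call was not kept in all 6 omissions of a library.

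Markers of other cell types were followed because these transcripts are shared with fibroblasts and endothelium. Of 13 fibroblast and stromal markers 9 were tested and none was called (2 at an unadjusted p under 0.05; 0 by DESeq2 and 1 by limma-voom), but 2 were called higher with SALL4 siRNA without SALL4 siRNA replicate 3. Their summed level was 734 to 1646 CPM with SALL4 siRNA, 698 to 1085 CPM with VRTN siRNA and 1732 to 1997 CPM in the controls. Most of it was COL1A1, and FAP is listed at 0 in all 6 libraries. FBLN1 had the smallest p, at 294, 284 and 193 CPM against 193, 190 and 157 CPM (0.53 ± 0.17, adjusted p = 0.181). Without SALL4 siRNA replicate 3 it was called (0.70, adjusted p = 0.0146). Of 18 blood and endothelial markers 6 were tested and 1 was called (16.7%, beside 1.21% of all genes tested). This was KDR, the VEGF receptor that stem cells also express, at 147, 140 and 56.7 CPM against 46.7, 46.3 and 30.2 CPM (1.497 ± 0.31, adjusted p = 0.0389, up to 0.202 without any library but SALL4 siRNA replicate 3). PTPRC, GATA1, HBG1, CD3E and SPI1 are among those listed at 0 in all 6 libraries. The part of cells of other types in the differences above was not tested. Of 11 tested stem cell markers DNMT3B was the 1 call (9.1%, beside 1.21% of all genes tested), with a list median of -0.33. Unadjusted p-values were under 0.05 for 6 of the 11 (54.5%, beside 12.6% of all genes tested), all higher with VRTN siRNA. DESeq2 called 2, limma-voom 4 and the fit without SALL4 siRNA replicate 3 called 4, all higher with VRTN siRNA.

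Because the pools differed in kind, genes that respond to double-stranded RNA and the RNA interference machinery were followed as well. Of 42 genes of the interferon and double-stranded RNA response 25 were tested. Called were 3 (12%, beside 1.21% of all genes tested), all higher with SALL4 siRNA, as were 81.9% of all calls. IFITM3, a membrane protein that blocks viral entry, stood at 1997, 1756 and 1337 CPM against 942, 989 and 1002 CPM (0.81 ± 0.14, adjusted p = 0.0154). IFITM1 stood at 158, 162 and 126 CPM against 89.1, 90.9 and 96.7 CPM (0.70 ± 0.14, adjusted p = 0.0321) and overlaps IFITM2 on the same strand. Both belong to a family of near copies and lost the call without any library but SALL4 siRNA replicate 3 (highest adjusted p 0.127 and 0.203). The other was TRIM22, given above. Of the 42 genes 18 were under 1 CPM in all 6 libraries, 11 of them at 0, among them IFNB1, CXCL10, OAS1 and OAS2. ISG15 stood at 1.60 to 2.65 CPM with SALL4 siRNA and at 1.44 to 4.40 CPM with VRTN siRNA.

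MOV10, an RNA helicase that associates with Argonaute, was the 1 call of 19 genes of the RNA interference machinery (5.3%, beside 1.21% of all genes tested). It stood at 187, 164 and 155 CPM with SALL4 siRNA and at 47.5, 38.1 and 55.1 CPM with VRTN siRNA (1.86 ± 0.16, adjusted p = 2.58e-04, and 0.0109 at most with a library left out). The VRTN siRNA libraries overlapped the controls at 47.4 to 63.6 CPM and the SALL4 siRNA libraries were far above. The controls include both a Luciferase esiRNA, at 63.6 and 47.4 CPM, and a Control siRNA, at 52.8 and 51.2 CPM. The processing enzyme DICER1, at 39.9 to 50.3 CPM against 33.7 to 71.3 CPM, and AGO2, at 65.4 to 76.6 CPM against 64.4 to 103 CPM, overlapped between the groups; both are named after their values were seen.

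General metabolism, stress and growth lists held few or no calls, where 1.21% of all genes tested were called. For lists of this size such counts are near the share over all genes. Of all genes tested 12.6% had an unadjusted p under 0.05, the share to set beside the unadjusted counts of these lists. SEPHS1, a selenophosphate synthetase homologue that was a target elsewhere in the series, was the 1 call among 24 selenoprotein genes (2 by limma-voom). It stood at 174, 197 and 249 CPM against 397, 347 and 317 CPM, with SALL4 siRNA libraries below the controls at 381 to 440 CPM (-0.76 ± 0.15, adjusted p = 0.0339, up to 0.223 without any library but SALL4 siRNA replicate 3). DSCC1, a subunit of an alternative clamp loader and another target in the series, stood at 1.43, 1.63 and 4.64 CPM against 2.73, 1.88 and 2.88 CPM and was not called (0.050 ± 0.59). Its direction turned with the library left out, to -0.69 without SALL4 siRNA replicate 3 and -0.11 without VRTN siRNA replicate 2.

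Mitotic genes had 0 calls among 30 tested and a median of -0.30. Unadjusted p-values were under 0.05 for 8 (26.7%, beside 12.6% of all genes tested), 7 of them higher with VRTN siRNA. There were 4 calls by DESeq2, 4 by limma-voom and 3 without SALL4 siRNA replicate 3. CCNB2, cyclin B2, stood at 19.0, 20.4 and 27.4 CPM against 38.5, 40.6 and 38.8 CPM (-0.80 ± 0.19, adjusted p = 0.0668, 0.012 without SALL4 siRNA replicate 3). MYC stood at 93.4, 107 and 163 CPM against 167, 147 and 186 CPM (-0.45 ± 0.19, adjusted p = 0.36, 0.0223 without SALL4 siRNA replicate 3). The 77 cytosolic ribosomal protein genes had 0 calls and a median of -0.025, with 1 at an unadjusted p under 0.05 and 0 calls by DESeq2 or limma-voom. RPS24 had the smallest p among them, at 511 to 650 CPM against 676 to 746 CPM (adjusted p = 0.362).

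Among 31 genes of glycolysis and hypoxia there were 0 calls (6 unadjusted; 1 by DESeq2, 2 by limma-voom and 1 without SALL4 siRNA replicate 3), and TPI1, triosephosphate isomerase, came nearest at 479 to 520 CPM against 376 to 384 CPM (0.39 ± 0.10, adjusted p = 0.114). The 41 nuclear genes of the respiratory chain had 0 calls (5 unadjusted; 1 by DESeq2 and 1 by limma-voom), with CYC1, cytochrome c1, at 159 to 181 CPM against 103 to 127 CPM (adjusted p = 0.0966). Genes of the mitochondrial genome (14 tested), cholesterol and lipid synthesis (26), the unfolded protein response (19), heat shock (15), histones (11), the MYC family (20) and serpins (11) had 0 calls in edgeR. Of these lists, 1, 4, 2, 2, 1, 2 and 0 members had an unadjusted p under 0.05, 0, 1, 0, 0, 0, 0 and 0 were called by DESeq2 and 0, 1, 1, 0, 0, 1 and 0 by limma-voom. Without SALL4 siRNA replicate 3 the lists of cholesterol synthesis, heat shock and the MYC family held 1 call each. The member with the smallest p was MT-RNR2 at 12144 to 18437 CPM against 14101 to 23921 CPM, MSMO1 at 92.2 to 122 against 131 to 170, HSP90B1 at 153 to 220 against 232 to 255, and HSPA1A at 19.9 to 21.3 against 23.8 to 41.1. For the histones it was H2AC6 at 6.39 to 9.16 CPM against 3.87 to 4.15, and for the MYC family it was MYC, as above. HSPA1A has a near-identical copy, and its counts are uncertain. Serpins outside the list were called higher with SALL4 siRNA: SERPINB3 and SERPINB4, named after their values were seen. SERPINB3 stood at 5.61, 2.08 and 1.15 CPM and was listed at 0 in the VRTN siRNA libraries (adjusted p = 0.0213). SERPINB4 stood at 3.98, 2.12 and 3.20 CPM against 0 to 0.149 CPM (adjusted p = 0.0333). Both genes were at low average levels, 0.72 and 0.81 log2 CPM. Neither call was kept in all 6 omissions of a library.

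Of the 193 calls, 33 were kept when each of the 6 libraries was left out in turn. Besides those given above, examples chosen after their values were seen include CAV1, the caveolar coat protein, at 21.7, 24.9 and 22.2 CPM against 5.05, 4.61 and 4.97 CPM (2.25 ± 0.22, adjusted p = 0.001). IGFBP4, which sequesters insulin-like growth factors, stood at 89.6, 76.2 and 68.8 CPM against 31.7, 25.0 and 28.98 CPM (1.47 ± 0.16, adjusted p = 0.00153). For CAV1 and IGFBP4 the controls lay between the groups, at 8.12 to 11.1 and 45.9 to 64.8 CPM. APELA, the peptide hormone of embryonic stem cells that signals through the apelin receptor, stood at 19.8, 18.1 and 32.9 CPM against 5.42, 5.80 and 3.58 CPM (2.27 ± 0.30, adjusted p = 0.00385), with only the VRTN siRNA libraries outside the control range of 15.0 to 24.1 CPM. SLC25A23, a mitochondrial carrier regulated by calcium, was higher with VRTN siRNA, at 102, 97.0 and 136 CPM against 272, 259 and 239 CPM (-1.19 ± 0.15, adjusted p = 0.00255), and here the SALL4 siRNA libraries were the ones below the controls at 258 to 276 CPM.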

How the data were processed

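RNA from 16 samples was enriched for poly(A) and sequenced as 80 bp single reads, per the labels' protocols. The authors deposited raw counts per Ensembl gene. STAR 2.4.0.1, HTSeq 0.9.1 and GRCh38 are named in the submitters' processing notes. The annotation release, the strand setting and the treatment of reads shared by gene copies are not given in the sources used here. The stated 48 h harvest was used, although a longer time in culture is named elsewhere in the protocols. Of 60675 identifiers 33486 had no count, 56558 were named from a gene name table and 497 from GENCODE release 29 (also the source of positions), and 3620 were unnamed. Only the 6 libraries compared entered the fit: filterByExpr kept 15952 genes and left out 44723, TMM gave the scaling, and genes were tested two-sided by quasi-likelihood in edgeR 4.0.16 (R 4.3.3). A call needed an adjusted p (Benjamini-Hochberg, over all genes kept) under 0.05. The common dispersion was 0.173. SE was computed as the size of the log2 fold change over the root of its F statistic. CPM levels were scaled by TMM over all 16 libraries. The library totals limit precision. The floors of 3 counts cover counting error only, as reads carry no molecular identifiers.

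The compared groups and the 44 gene lists were chosen with earlier results of these data known. Named genes are SALL4, VRTN, SEPHS1, DSCC1, POU5F1, NANOG and SOX2, the 12 largest rises and 12 largest falls among called genes with a symbol, at least 2 log2 CPM on average and groups that do not overlap, and up to 4 called members with the smallest p per list, or the member with the smallest p where none was called. Not every gene selected by this rule is reported here. Lists are described by their counts and medians without a set test. The pipeline was tested on simulated data. Alternatives tried were 2 other scalings in edgeR (DESeq2's size factors, upper quartile), filtering more strictly or not at all, DESeq2 1.42.0, limma-voom (limma 3.58.1) with quality weights, all 16 libraries in 1 design, a replicate block, a 2-fold minimum and leaving out each library. Leaving out replicate 3 of both groups was added after seeing the data.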

Additional observations from a re-analysis of the deposited data

How the results depend on the processing

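The number of called genes, 193 in the comparison as reported, was 178 with DESeq2 size factors, 173 with upper quartile scaling and 218 with a stricter filter. It was 734 with no filter on low counts, 511 with DESeq2, 583 with limma-voom, 482 with all 16 libraries in 1 design, 10 with a 2-fold minimum and 653 without replicate 3 of both groups. It ranged from 40 (without VRTN siRNA replicate 1) to 534 (without SALL4 siRNA replicate 3) with 1 library left out. Of the 193 calls, DESeq2 shared 191, limma-voom 185, the design over all libraries 180 and the fit without VRTN siRNA replicate 1 shared 38, all with the same sign. The share of calls higher with SALL4 siRNA was 81.9% as reported, 73.0% with DESeq2 (373 and 138 genes), 71.5% with limma-voom (417 and 166), 71.2% with all 16 libraries (343 and 139) and 100% with the 2-fold minimum (10 and 0). The causes were not tested. A replicate block gave 357 calls (289 and 68), 192 of them shared. The numbers were not shown to pair the samples: deviations of same-numbered libraries correlated at 0.0725, 0.181 and 0.423 over 5826 genes, and only SALL4 siRNA replicate 3 correlated best with its own number. Among the genes named by the rule, directions turned for 4 that were not called. Turns among the other genes tested were not counted. DSCC1 (0.050 as reported) was at -0.42 with limma-voom, -0.13 with the replicate block, -0.69 without SALL4 siRNA replicate 3, -0.11 without VRTN siRNA replicate 2 and -0.58 without replicate 3 of both groups. With 1 library left out it ranged from -0.69 to 0.33. POU5F1 was at -0.0095 with upper quartile scaling and ranged from -0.056 to 0.12 with 1 library left out. NANOG ranged from -0.045 to 0.43 and SOX2 from -0.018 to 0.11. Of the 60 called genes named by the rule, 58 kept the call with DESeq2, 57 with limma-voom, 60 with the block, and 17 to 60 with 1 library left out.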
